A study of Mus musculus with 3 samples.

Results

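Microglia are the resident macrophages of the central nervous system. They depend on CSF1R, the receptor for CSF1 and IL-34, for survival, and survey the tissue through CX3CR1, the fractalkine receptor, and P2RY12, a receptor for ADP. TREM2 binds lipids and apolipoproteins and signals through the adaptor TYROBP. Within the cell, the Src-family kinase LYN, the receptor phosphatase CD45 (Ptprc) and the lipid phosphatase SHIP1 (Inpp5d) set the strength of such signals, RIAM (Apbb1ip) links the GTPase Rap1 to integrins, and cathepsin S (Ctss) is a lysosomal protease used in antigen presentation.

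These 9 genes were followed through the snRNA-seq data as the rows of the count table with the symbols Cx3cr1, Csf1r, P2ry12, Trem2, Lyn, Ptprc, Inpp5d, Apbb1ip and Ctss, 9 of 31040 genes. Raw counts of unique molecular identifiers (UMIs) were summed per mouse over the cell types and microglia sub-clusters that the authors assigned to nuclei. The nuclei came from frozen lumbar spinal cord of 12 mice aged 90 days, 3 females and 3 males of each genotype. SOD1G93A mice were B6.Cg-Tg(SOD1*G93A)1Gur/J, which carry mutant human SOD1 as a high-copy transgene, and WT mice were C57BL/6J littermates. Each of the pools A, B and C was 1 library that held 1 mouse of each sex and genotype, told apart by nuclear hashtags. As the mutant protein is overexpressed from a transgene, the mice do not model a change in the native gene.

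The table held 14662 nuclei and 206486779 UMIs, or 6411715 to 36668441 UMIs in 548 to 2259 nuclei per mouse. Pools A and B shared 5 cell barcodes, A and C shared 6, and B and C shared 4. Microglia were rare, with 223 nuclei and between 5 and 41 per mouse. They were split into sub-cluster 0 (132 nuclei of 12 mice), sub-cluster 1 (76 nuclei of 11 mice, none from the female SOD1G93A mouse of pool C) and sub-cluster 2 (15 nuclei of 6 mice). Sub-cluster 0 held 3 to 21 nuclei per mouse. Levels are given in CPM, the UMIs of a gene scaled to 1000000 UMIs of the unit, and are compared between units for 1 gene at a time.

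The sub-clusters differed in how far their markers matched the label. The 13 microglia markers summed to 1814 CPM in sub-cluster 2, where 1 of the 13 was at 0, to 279 CPM in sub-cluster 0 and to 95.04 CPM in sub-cluster 1, beside 90.1 CPM in neurons. Among the other cell types, Schwann and meningeal cells were highest at 287 CPM, no lower than sub-cluster 0. P2ry12 alone gave 46.4 CPM of the sum in neurons and 37.8 CPM of that in sub-cluster 1. The 7 neuron markers summed to 2324, 11677 and 13323 CPM in sub-clusters 2, 0 and 1, beside 17699 CPM in neurons. The 6 oligodendrocyte markers summed to 11281, 4668 and 4767 CPM, beside 11909 CPM in oligodendrocytes. A median nucleus held 8816 UMIs in sub-cluster 2, 71350.5 in sub-cluster 0 and 28508 in sub-cluster 1, beside 12864.5 in neurons. The microglia markers of sub-cluster 1 thus stood near their level in neurons, against its label, and all 3 sub-clusters are called by number below. The part of joined nuclei or free RNA in these levels was not tested.

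Each of the 9 genes was highest in sub-cluster 2 and stood in sub-cluster 0 between that level and the level in neurons. The clusters were formed from the same nuclei, so these levels are a description without a test. Among the surface receptors, Csf1r averaged 160 ± 89.4 CPM in sub-cluster 2 (SD, n = 6 mice), 23.1 ± 9.51 in sub-cluster 0 (n = 12) and 1.06 ± 2.24 in sub-cluster 1 (n = 11), beside 1.94 ± 1.18 in neurons (n = 12). Cx3cr1 averaged 181 ± 115, 34.3 ± 16.1 and 13.1 ± 10.5 CPM in sub-clusters 2, 0 and 1, beside 10.5 ± 2.43 in neurons. For both receptors 1 of the 6 mice had no UMI in sub-cluster 2, and sub-cluster 1 and neurons did not differ beyond their spread. Trem2 rested on few UMIs, 12 in sub-cluster 2 (91.9 ± 72.3 CPM), 56 in sub-cluster 0 (3.94 ± 2.18 CPM) and 1 in sub-cluster 1. P2ry12 averaged 242 ± 187 CPM in sub-cluster 2, while sub-cluster 0 at 51.0 ± 21.6, sub-cluster 1 at 39.0 ± 20.1 and neurons at 42.0 ± 15.1 CPM did not differ beyond their spread.

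**Figure D1:**
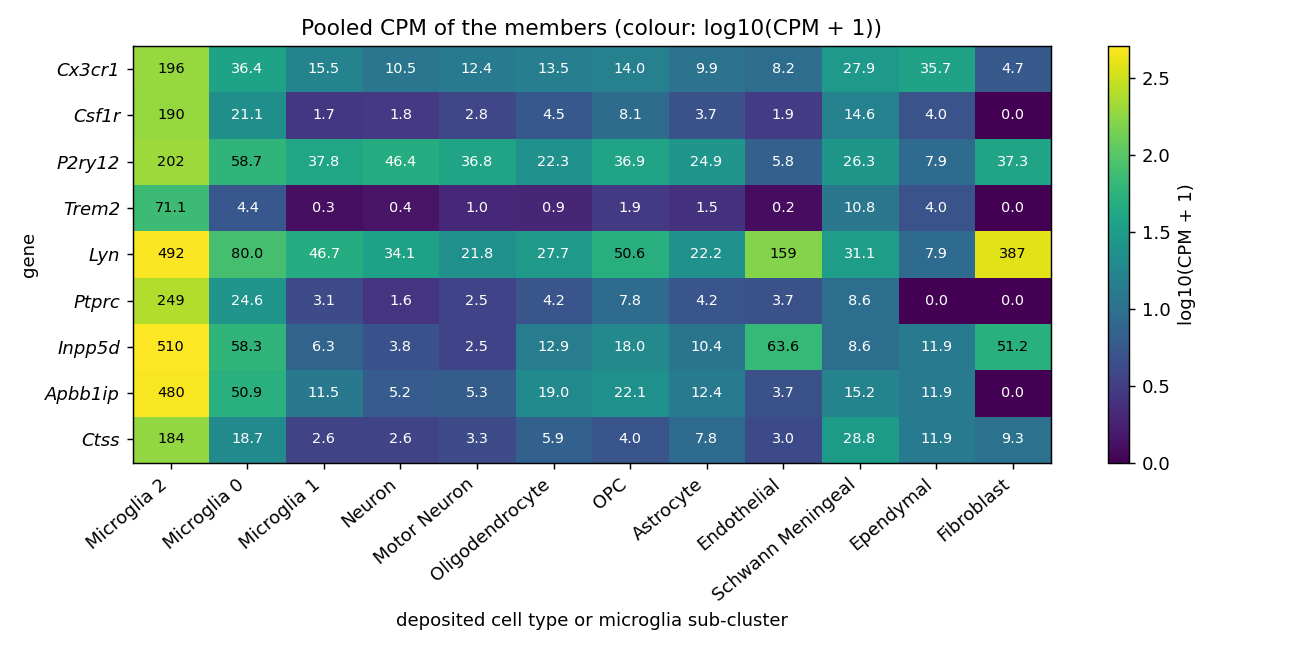
Pooled CPM of the 9 genes (rows) in the 3 microglia sub-clusters and the 9 other deposited cell types (columns), with colour on a log scale. Sub-cluster 2 has the highest value of each gene, Lyn is also high in fibroblasts and endothelial cells, and P2ry12 stays above 20 CPM in 7 of the 9 other types.

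The signalling enzymes, the adaptor and the protease kept the same order. Lyn averaged 501 ± 44.9, 82.6 ± 34.1 and 46.0 ± 28.3 CPM in sub-clusters 2, 0 and 1, beside 32.9 ± 6.78 in neurons. Ptprc averaged 254 ± 50.5, 30.7 ± 16.2 and 3.35 ± 5.23 CPM, beside 1.80 ± 1.25 in neurons. For both genes sub-cluster 2 stood above sub-cluster 0 in every mouse, and sub-cluster 1 overlapped with neurons. Inpp5d averaged 651 ± 428, 58.8 ± 21.4 and 5.49 ± 8.84 CPM, and Apbb1ip 490 ± 157, 48.1 ± 20.0 and 11.6 ± 13.2 CPM. Ctss averaged 211 ± 80.3, 19.5 ± 11.2 and 1.91 ± 2.72 CPM. The pooled level in sub-cluster 2 over that in sub-cluster 0 was smallest for P2ry12, at 3.43 times, and largest for Trem2, at 16.0 times. Sub-cluster 0 over neurons ran from 1.27 times for P2ry12 to 15.3 times for Inpp5d and Ptprc, and sub-cluster 1 over neurons from 0.710 times for Trem2 to 2.22 times for Apbb1ip.

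The share of nuclei with at least 1 UMI followed the levels once each nucleus was thinned to 5000 UMIs, which left out 2 nuclei of sub-cluster 2 and 3 of sub-cluster 0. It ran from 30.8% (Csf1r and Trem2) to 100% (Lyn) in sub-cluster 2 and from 3.88% (Trem2) to 34.9% (Lyn) in sub-cluster 0. In sub-cluster 1 it ran from 0% (Csf1r and Trem2) to 14.5% (Lyn), and in neurons from 0.183% (Trem2) to 19.1% (P2ry12). Lyn and P2ry12 in sub-cluster 1, at 14.5% and 9.21%, were no higher than in neurons, at 15.9% and 19.1%, and are not read as microglial expression. Without thinning, the lowest and highest shares were 46.7% and 100% in sub-cluster 2, 29.5% and 90.2% in sub-cluster 0, 1.32% and 65.8% in sub-cluster 1 and 0.614% and 40.4% in neurons. Sub-cluster 0 was also uneven from nucleus to nucleus, as the summed members had quartiles of 138 and 588 CPM, a maximum of 2612 CPM, and 33.6% of their UMIs in 14 of the 132 nuclei.

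Some members had a high level in other cell types too. Lyn stood at 156 ± 26.8 CPM in endothelial cells (n = 12), above its level in sub-cluster 0, and Inpp5d at 65.0 ± 15.1 CPM, no different from sub-cluster 0 beyond the spread. Ctss stood at 26.2 ± 12.97 CPM in Schwann and meningeal cells, also within the spread of sub-cluster 0, and Trem2 at 9.26 ± 12.0 CPM with 5 of 12 mice at 0. The pooled 387 CPM of Lyn in fibroblasts rested on 1 mouse at 2839 CPM, as 4 of the 10 mice with fibroblasts were at 0 and the median was 60.6 CPM.

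Nuclei labelled microglia held only a part of each gene's UMIs. They contributed 7.88% of all UMIs, and 45.4% of those of Ptprc (363 of 799), 39.2% for Inpp5d, 38.8% for Csf1r, 35.4% for Apbb1ip, 33.3% for Trem2 (69 of 207), 28.3% for Ctss, 20.6% for Cx3cr1, 15.4% for Lyn and 10.4% for P2ry12. Neurons, with 70.9% of all UMIs, held 77.6% of the P2ry12 UMIs and 26.0% of those of Inpp5d. Single nuclei rich in the members, here those with at least 10 UMIs of the 9 genes and 1000 CPM, limits set after their values were seen, numbered 62. Of these, 14 were in sub-cluster 2 (10 in WT and 4 in SOD1G93A mice), 8 in sub-cluster 0 (2 of 79 nuclei in WT and 6 of 53 in SOD1G93A mice) and 0 in sub-cluster 1. The other 40 (19 in WT and 21 in SOD1G93A mice) carried another label, among them 16 neurons, 12 oligodendrocytes and 7 astrocytes. Over all nuclei the split was 31 and 31. The genotypes did not give equal numbers of nuclei, as WT mice had 5724 neurons and SOD1G93A mice 3076. As nuclei are not replicates of a genotype, neither a difference nor an equal rate is read from these counts. The 16 neurons had 935 CPM of 20 genes that relay TREM2 and CSF1R signals, a list without members, and 15795 CPM of the neuron markers, beside 175 and 17704 CPM in the other neurons. Their oligodendrocyte and astrocyte markers stood at 1181 and 530 CPM, beside 558 and 129 CPM.

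**Figure D2:**
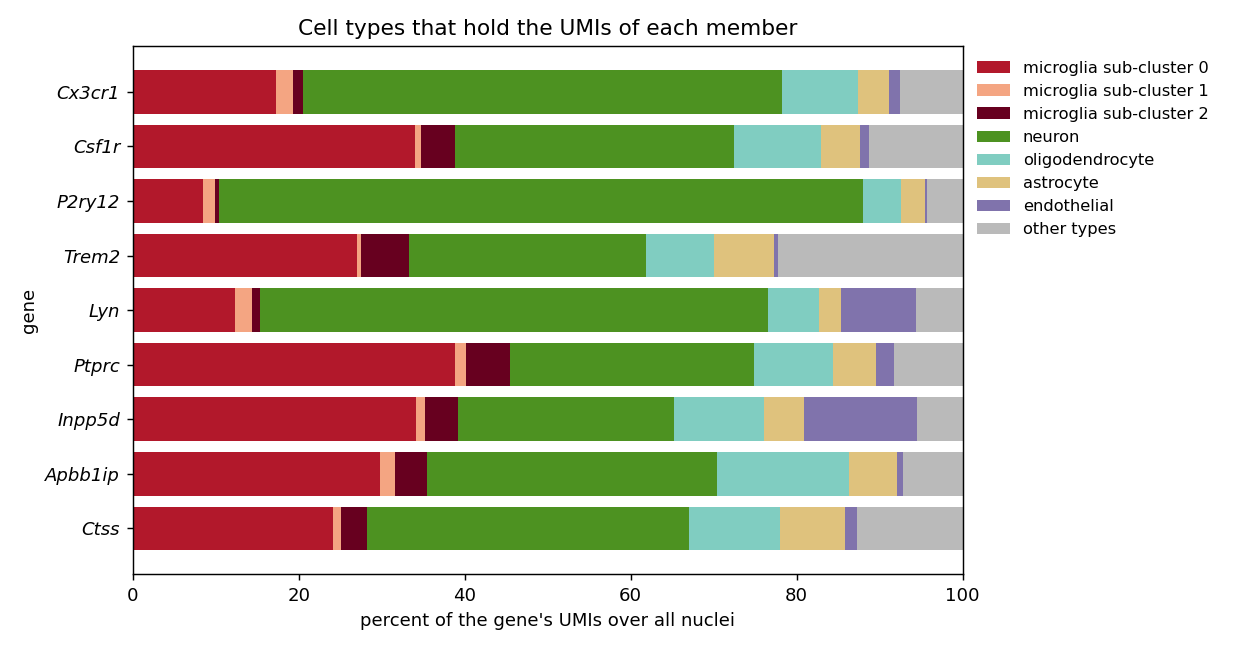
Share of each gene's UMIs over all nuclei (horizontal axis, percent) that fell in each microglia sub-cluster and cell type. Nuclei labelled microglia held between 10.4% (P2ry12) and 45.4% (Ptprc), and neurons held 77.6% of those of P2ry12.

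P2ry12 lies within another gene. In GENCODE vM21 (GRCm38) it covers chr3:59216272-59262871 on the minus strand, wholly inside Med12l, a Mediator subunit gene on the plus strand. P2ry12 stood at 12.3% of the CPM of Med12l in neurons and at 11.7% to 17.1% in 8 of the 9 other cell types, neurons included, with ependymal cells at 3.51%. It stood at 12.4% in sub-cluster 1, 20.6% in sub-cluster 0 and 189% in sub-cluster 2. Whether P2ry12 counts outside microglia arise from Med12l transcripts was not tested. Cx3cr1 is annotated over 168.3 kb (chr9:119901616-120069879, minus strand) that also hold Gorasp1, Csrnp1 and Xirp1 on the same strand. The part of these genes in its counts was not tested.

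**Figure D3:**
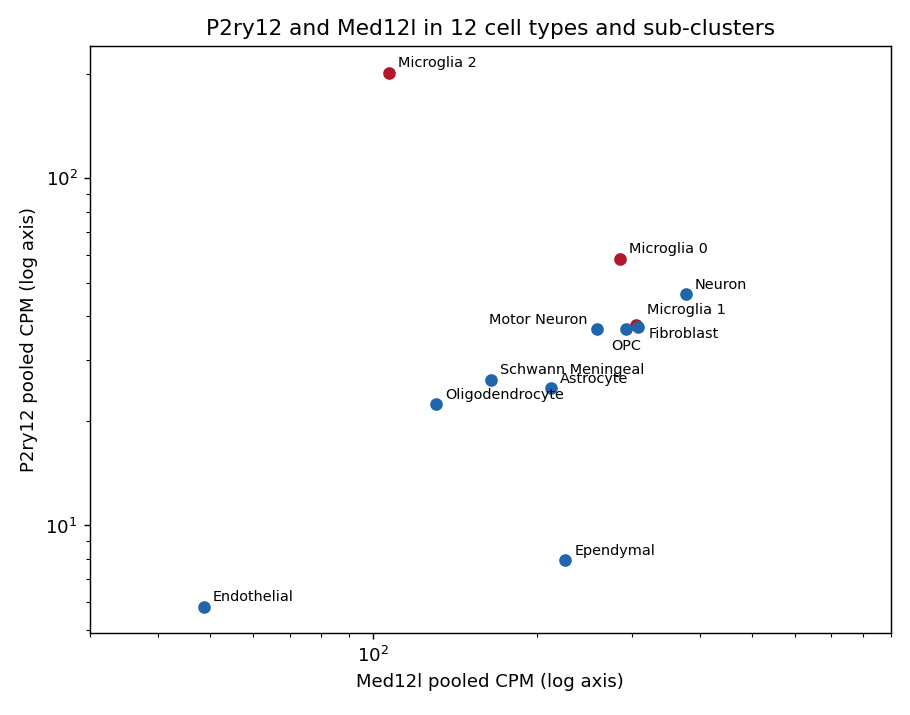
P2ry12 against Med12l, both as pooled CPM on log axes, with 1 point for each microglia sub-cluster and cell type. Apart from ependymal cells, the other types have P2ry12 at 11.7% to 17.1% of Med12l, and sub-cluster 2 has it at 189%.

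Promoters were read after 3 members were found to be higher in sub-cluster 0 of SOD1G93A mice, as described further on. A link between promoters and that result was not tested. PU.1 (Spi1), a transcription factor that macrophages need, binds DNA with GAGGAAGT at the core of its motif. RefSeq promoters (GRCm38.p6, 250 bases before to 50 after the start) were matched by symbol for 7 of the 9 genes, as 8 sequences, and Lyn and Csf1r were not searched. On either strand, GAGGAAGT was in 3 of the 8 (Ctss, Inpp5d and Apbb1ip) and in 3.2% of all 32851 promoters. These are not the 3 members that were higher, as Ptprc lacked it and Lyn was not searched. The shorter GAGGAA, part of every longer match, was in 5 of the 8, with Ptprc and Trem2 added, and in 28.3% of all. The stretches from 170 bases before to 30 after the start are shown for the 3 genes with the longer match and for Ptprc, 5′ to 3′ on the strand of the gene, with GAGGAA or its reverse complement TTCCTC in capitals. They lie at chr3:95526616-95526815 (plus) for Ctss, chr1:138175276-138175475 (minus) for Ptprc, chr1:87620142-87620341 (plus) for Inpp5d and chr2:22774157-22774356 (plus) for Apbb1ip. A match is a run of letters and not a site shown to be bound.
Ctss: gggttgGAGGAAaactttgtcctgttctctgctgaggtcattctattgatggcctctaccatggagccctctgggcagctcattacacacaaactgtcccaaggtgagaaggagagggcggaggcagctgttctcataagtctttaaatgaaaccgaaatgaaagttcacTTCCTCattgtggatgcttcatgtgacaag
Ptprc: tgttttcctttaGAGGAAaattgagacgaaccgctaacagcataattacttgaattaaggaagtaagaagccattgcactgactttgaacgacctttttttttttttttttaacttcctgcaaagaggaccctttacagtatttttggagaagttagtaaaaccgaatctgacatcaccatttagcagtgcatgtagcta
Inpp5d: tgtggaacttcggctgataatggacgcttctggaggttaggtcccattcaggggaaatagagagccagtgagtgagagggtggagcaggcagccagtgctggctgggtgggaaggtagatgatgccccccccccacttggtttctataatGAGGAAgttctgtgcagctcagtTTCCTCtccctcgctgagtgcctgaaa
Apbb1ip: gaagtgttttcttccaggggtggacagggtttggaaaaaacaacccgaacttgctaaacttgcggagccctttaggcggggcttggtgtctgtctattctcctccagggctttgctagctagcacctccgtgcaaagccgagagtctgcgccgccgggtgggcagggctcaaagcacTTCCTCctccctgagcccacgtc

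The comparison of genotypes asked whether the members differed in microglia of SOD1G93A mice at this age. In sub-cluster 0, 3 of the 8 members that passed the count filter were DEGs (FDR < 0.1), all higher in SOD1G93A mice: the protease gene Ctss, the phosphatase gene Ptprc and the kinase gene Lyn. The other 5 had positive log2 fold changes that did not pass, and Trem2 did not reach the filter. Over all 8010 genes, 0.449% were called (27 higher and 9 lower), and the median log2 fold change was 0.63 over the 8 members and 0.01 over all genes. The study itself names these 3 DEGs, and the members were chosen with that known, so the count is not independent evidence of a direction.

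Ctss stood at 3.45 to 17.0 CPM in the 6 WT mice (median 13.8) and at 11.8 to 42.1 CPM in the 6 SOD1G93A mice (median 28.2). Of the SOD1G93A mice, only the pool C male lay inside the WT range. Ctss was 2.29-fold higher (log2 1.19, SE 0.22, limma FDR = 0.0471). The WT mice had 115 UMIs of Ctss and the SOD1G93A mice 121. Its level was higher in 6 of 6 pairs matched for sex and pool, and the ratio of means was 1.83 in pool A, 2.23 in pool B and 4.31 in pool C. For all members, such pairs and ratios include mice with few nuclei of sub-cluster 0. The pool A females had 3 (WT) and 4 (SOD1G93A), and the pool C males 4 and 5.

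Ptprc stood at 14.8 to 27.3 CPM in WT (median 18.9) and at 20.6 to 62.4 CPM in SOD1G93A mice (median 37.9). The pool C male was again the 1 SOD1G93A mouse inside the WT range, at 20.6 CPM beside 20.7 CPM in its WT match. Ptprc was higher by 1.00 on the log2 scale (SE 0.23, limma FDR = 0.0951), in 5 of 6 pairs, with ratios of 1.79, 3.20 and 1.52 in pools A, B and C. Lyn stood at 34.5 to 82.9 CPM in WT (median 57.2) and at 73.6 to 143 CPM in SOD1G93A mice (median 109). Both SOD1G93A mice of pool C lay inside the WT range of Lyn and the other 4 above it. Lyn was 1.64-fold higher (log2 0.72, SE 0.15, limma FDR = 0.0659), in 6 of 6 pairs, with ratios of 2.08, 1.62 and 1.81.

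**Figure D4:**
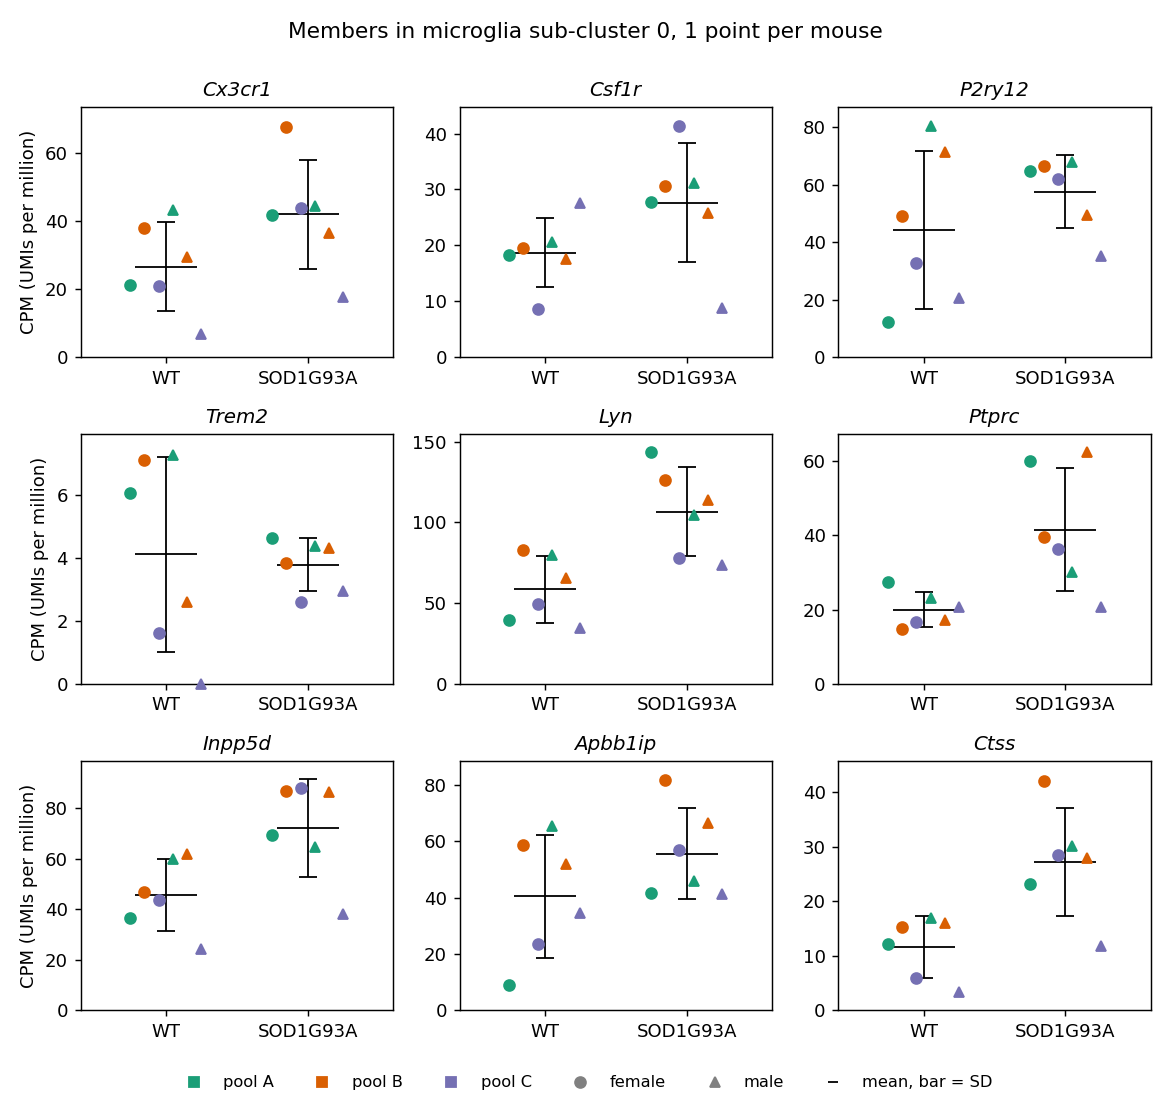
CPM of each gene in sub-cluster 0 (vertical axes, 1 panel per gene) in the 6 WT and 6 SOD1G93A mice, with 1 point per mouse, colour for the pool, shape for the sex, and the mean and SD. Ctss and Lyn were higher in SOD1G93A in 6 of 6 matched pairs, while all SOD1G93A values of P2ry12 and Trem2 lay inside the WT range.

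Among the members that did not pass, Inpp5d and Cx3cr1 were higher in 6 of 6 pairs. Inpp5d stood at 24.1 to 61.7 CPM in WT (median 45.3) and at 38.3 to 88.0 CPM in SOD1G93A mice (median 77.8), where only the pool C male lay inside the WT range (log2 0.54, SE 0.17, limma FDR = 0.243). Cx3cr1 stood at 6.90 to 43.2 CPM (median 25.4) and at 17.7 to 67.7 CPM (median 42.8), with 3 SOD1G93A mice inside the WT range (log2 0.54, SE 0.20, limma FDR = 0.362). Csf1r stood at 8.55 to 27.6 CPM (median 18.9) and at 8.83 to 41.4 CPM (median 29.2), higher in 5 of 6 pairs and with 2 SOD1G93A mice inside the WT range (log2 0.80, SE 0.24, limma FDR = 0.235).

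For Apbb1ip, P2ry12 and Trem2 most or all SOD1G93A mice lay inside the WT range. Apbb1ip stood at 9.11 to 65.4 CPM in WT (median 43.2) and at 41.2 to 81.7 CPM in SOD1G93A mice (median 51.5), a log2 difference of 0.39 (95% CI −0.07 to 0.85, limma FDR = 0.662). P2ry12 stood at 12.1 to 80.4 CPM (median 40.9) and at 35.3 to 67.9 CPM (median 63.4), a log2 difference of 0.23 (95% CI −0.22 to 0.68, limma FDR = 0.844). Trem2 averaged 4.11 ± 3.11 CPM on 40 UMIs in WT and 3.78 ± 0.83 CPM on 16 UMIs in SOD1G93A mice (SD, n = 6 each), higher in 3 of 6 pairs, so a difference was not detectable at this depth.

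Marker lists were read in the same nuclei. The microglia markers, a list that holds 5 of the 9 members, summed to 167 to 310 CPM in WT (median 225) and 144 to 383 CPM in SOD1G93A mice (median 344). The neuron markers summed to 11116 to 12333 CPM in WT and 10740 to 12447 CPM in SOD1G93A mice. The oligodendrocyte markers summed to 4063 to 5661 and 3146 to 4760 CPM, with log2 fold changes below 0 for all 6 (median −0.24, 0 called). Border macrophage markers, with Cbr2 and Pf4 at 0 in every mouse, had 111 UMIs (60.8 CPM) in the pool A male SOD1G93A mouse, led by F13a1 and Mrc1, and 0 to 11.5 CPM in the other 11 mice. Lymphocyte markers, with Cd3e at 0, summed to 14.0 to 28.85 CPM in WT and 8.61 to 130 CPM in SOD1G93A mice, the highest on 28 UMIs in the pool A female. Most of their 330 UMIs were of Skap1 (143 in WT and 128 in SOD1G93A mice), while Cd247 had 25 and 11 and Themis 11 and 5. The part of these markers in the result was not tested.

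The 3 calls changed with the fit, with single mice, with the pool term and when the largest nuclei were left out. Nuclei over 60000 UMIs were 74 of the 132 in sub-cluster 0 (56.1%). Their own part in the calls therefore cannot be told apart from the loss of counts. Without nuclei over 60000 UMIs, genes called fell from 36 to 7 and members from 3 to 0, with Lyn at log2 0.78 (limma FDR = 0.5538) and Ctss and Ptprc below the count filter. There the log2 fold change went from 0.54 to 0.14 for Inpp5d (limma FDR = 0.985) and from 0.54 to 0.99 for Cx3cr1 (limma FDR = 0.5995). Ptprc was not called with edgeR (FDR = 0.135), DESeq2 (0.142), eBayes without robust fitting (0.109) or no filter on low counts (0.142), and Lyn was not called with no filter (FDR = 0.119). Leaving out the pool A male SOD1G93A mouse, log2 fold changes were 1.15 for Ctss, 1.35 for Ptprc and 0.76 for Lyn, with limma FDR = 0.269, 0.115 and 0.186. All 3 were also lost on leaving out the pool B female WT, the pool A male WT or the pool B female SOD1G93A mouse, at limma FDR = 0.116 to 0.324. Ptprc and Lyn were lost without the pool B male WT (FDR = 0.172 and 0.126), and Ptprc without the pool C female or the pool B male SOD1G93A mouse (FDR = 0.138 and 0.118). Csf1r was added without the pool A female WT mouse (FDR = 0.0967) and on mice with 5 or more nuclei (FDR = 0.0945). With no pool term 0 of 8010 genes were called, at log2 1.31, 1.01 and 0.71 for Ctss, Ptprc and Lyn. In the settings that tested them, the 3 genes kept log2 fold changes of 1.11 to 1.31, 0.77 to 1.35 and 0.60 to 0.86.

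Over all nuclei labelled microglia, 0 of the 8 members tested were called by limma, edgeR or DESeq2, beside 0.0759% of 9218 genes by limma. An unadjusted p under 0.05 was reached by 732 of the genes, among them Ctss, Ptprc, Lyn, Cx3cr1 and Csf1r. Ctss came nearest, at 5.31 to 17.6 CPM in WT (median 11.2) and 8.18 to 31.4 CPM in SOD1G93A mice (median 26.5), a log2 difference of 1.00 (SE 0.22, limma FDR = 0.106). With sub-cluster 1 left out, an alternative chosen after seeing the data, Ctss passed (log2 1.05, limma FDR = 0.0855). Ptprc had a log2 difference of 0.78 (limma FDR = 0.335) and Lyn one of 0.51 (limma FDR = 0.287) over all microglial nuclei.

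In sub-cluster 1 only Lyn and P2ry12 passed the count filter. They had log2 differences of −0.46 (95% CI −1.25 to 0.34) and −0.78 (95% CI −1.57 to 0.01), and 0 of these 2 were called by limma, edgeR or DESeq2, beside 0.0177% of 5660 genes (149 had an unadjusted p under 0.05). The difference of genotype effects itself, sub-cluster 0 minus sub-cluster 1, was 1.39 on the log2 scale for Lyn (95% CI 0.61 to 2.16, limma FDR = 0.635) and 0.93 for P2ry12 (95% CI −0.01 to 1.87, limma FDR = 1.00), with 0 of these 2 called, beside 0.0143% of 6979 genes (278 had an unadjusted p under 0.05). The SOD1G93A females of sub-cluster 1 were the pool A mouse with 1 nucleus and the pool B mouse with 5. Both contrasts nonetheless gave the sexes equal weight. With each mouse left out in turn, the log2 difference in sub-cluster 1 ran from −0.55 to −0.02 for Lyn and from −0.95 to −0.47 for P2ry12. The difference between sub-clusters then ran from 0.80 to 1.59 for Lyn and from 0.615 to 1.16 for P2ry12. Shares of nuclei with Lyn and P2ry12 in sub-cluster 1 were no higher than in neurons, as given above. The other members did not pass the count filter in sub-cluster 1 on its own, so no difference is given for them. Sub-cluster 2, with 6 mice, was not tested. Its summed members stood at 2008 to 3354 CPM in 4 WT mice and at 2781 and 3038 CPM in 2 SOD1G93A mice.

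**Figure D5:**
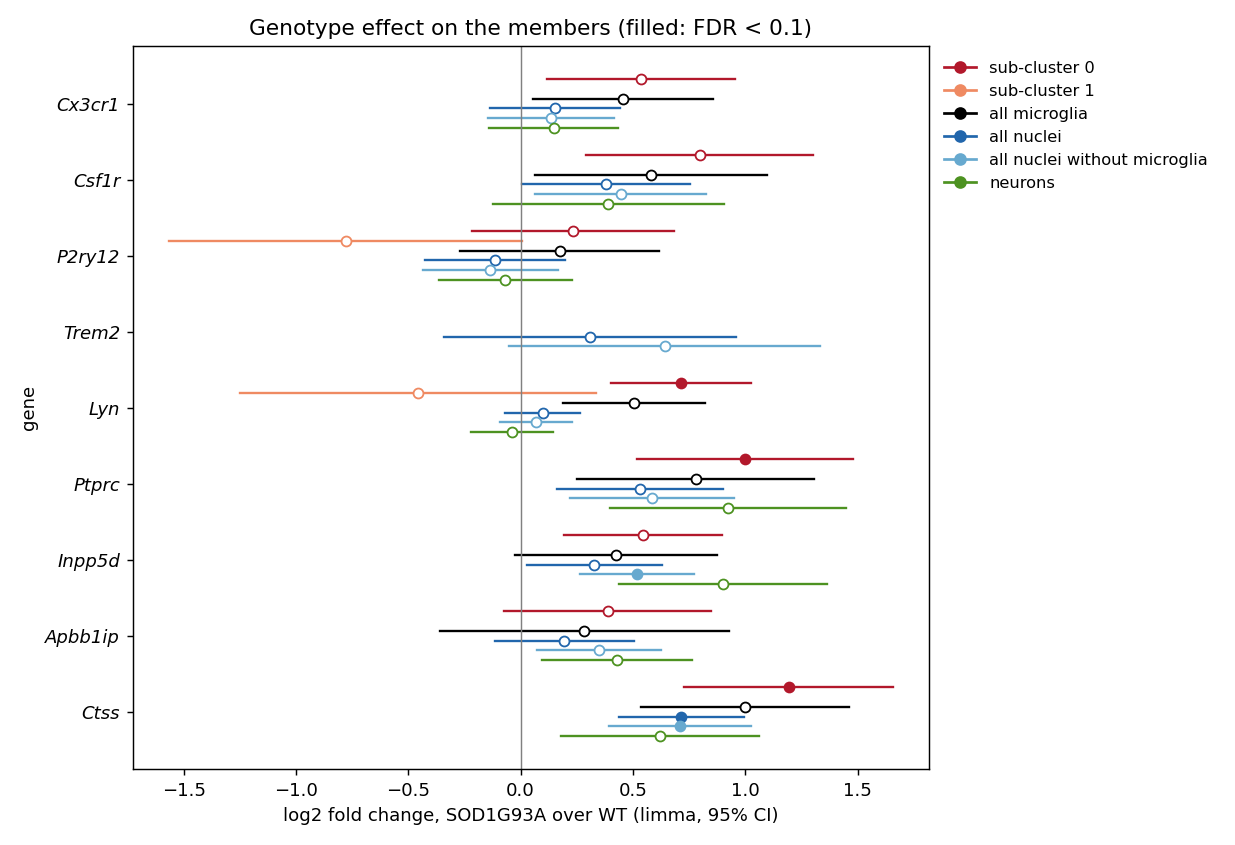
Log2 fold change of each member, SOD1G93A over WT (horizontal axis, limma, lines for the 95% CI), in the sets of nuclei named in the key, with filled points at FDR < 0.1. In sub-cluster 0 the filled points are Ctss, Ptprc and Lyn, and a gene without a point was not tested in that set.

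Summed over all nuclei of a mouse, where more cells of a type and more RNA per cell cannot be told apart, 1 of 9 members was called, beside 3.14% of 17097 genes (498 higher and 38 lower). This was Ctss, at 3.05 to 4.60 CPM in WT (median 3.84) and 4.37 to 9.36 CPM in SOD1G93A mice (median 5.94), ranges that overlapped, and higher in 6 of 6 pairs (log2 0.71, SE 0.13, limma FDR = 0.0199). The call was lost with no pool term, where 32 genes and 0 members were called. Ptprc and Inpp5d were also higher in 6 of 6 pairs but did not pass (log2 0.53 and 0.33, limma FDR = 0.172 and 0.330). Lyn had a log2 difference of 0.10 (95% CI −0.07 to 0.27) and P2ry12 one of −0.11 (95% CI −0.42 to 0.20).

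Ctss also rose with the nuclei labelled microglia left out, a second alternative chosen after seeing the data (log2 0.71, SE 0.15, limma FDR = 0.0334). Inpp5d rose there as well (log2 0.52, SE 0.12, limma FDR = 0.0484), so that 2 of 9 members were called, beside 3.23% of 16922 genes. Schwann and meningeal nuclei, with Ctss near its level in sub-cluster 0, made up 0.576% to 6.70% of nuclei in WT and 4.26% to 25.0% in SOD1G93A mice, a difference that did not pass (edgeR, log2 1.42, FDR = 0.159). In astrocytes, where it was below the count filter and not tested, Ctss stood at 2.06 to 7.66 CPM in WT (median 3.89, 27 UMIs) and 6.79 to 15.5 CPM in SOD1G93A mice (median 10.7, 50 UMIs), higher in 6 of 6 pairs. Neurons held the most Ctss UMIs outside microglia, with values given next. The part of each cell type in the result was not tested.

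Within single other cell types, only a part of the members passed the count filter. Of the 9 genes, 8 were tested in neurons, 6 in oligodendrocytes, 4 in astrocytes, 2 each in motor neurons, OPCs and endothelial cells, and 0 in Schwann and meningeal cells, ependymal cells and fibroblasts, which give no result on the members (0.036%, 0% and 0% of genes called there). Of those tested, 0 were called by limma, edgeR or DESeq2, beside 0.0255% of genes by limma in neurons, 0.0475% in oligodendrocytes, 2.29% in astrocytes, 3.07% in motor neurons, 0.0411% in OPCs and 0.0131% in endothelial cells. Ctss was tested in neurons and oligodendrocytes only. In neurons it stood at 1.44 to 2.90 CPM in WT (median 2.25) and 2.28 to 6.38 CPM in SOD1G93A mice (median 3.03), on 196 and 182 UMIs, higher in 5 of 6 pairs, and did not pass (log2 0.62, SE 0.21, limma FDR = 0.955). In oligodendrocytes its log2 difference was 0.11 (95% CI −0.75 to 0.97). Inpp5d in neurons stood at 1.00 to 4.92 CPM in WT (median 3.08) and 1.99 to 12.1 CPM in SOD1G93A mice (median 5.14), with a log2 difference of 0.90 (SE 0.22, limma FDR = 0.434). Ptprc was higher in neurons in 6 of 6 pairs (log2 0.92, SE 0.25, limma FDR = 0.572). Lyn and P2ry12, with the most UMIs in neurons, had log2 differences of −0.04 (95% CI −0.22 to 0.14) and −0.07 (95% CI −0.37 to 0.23). In oligodendrocytes Inpp5d had a log2 difference of the other sign, −0.94 (95% CI −1.78 to −0.10), lower in 5 of 6 pairs, which did not pass (limma FDR = 1.00).

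A difference in the share of nuclei labelled microglia was not detected in any sub-cluster. Nuclei rich in the members under other labels are not part of these shares. Sub-cluster 0 made up 0.290% to 1.49% of nuclei in WT mice (median 0.881%) and 0.525% to 1.41% in SOD1G93A mice (median 0.837%), a log2 difference of 0.04 (edgeR FDR = 0.925). Sub-cluster 1 averaged 0.568% ± 0.325 in WT and 0.322% ± 0.206 in SOD1G93A mice (SD, n = 6 each, edgeR FDR = 0.394). Sub-cluster 2, with only 11 and 4 nuclei, averaged 0.118% in WT and 0.0471% in SOD1G93A mice (log2 −1.82, edgeR FDR = 0.447).

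Sex was compared over all nuclei labelled microglia, where 0 of 8 members were called by limma, edgeR or DESeq2, beside 0.434% of 9218 genes by limma. The log2 differences, female minus male, ran from −0.16 for P2ry12 to 0.45 for Cx3cr1 (95% CI 0.04 to 0.86, limma FDR = 0.763). In the same fit 3 of the 5 astrocyte markers were higher in females (median log2 difference 1.19, all 5 above 0), and their part in the members' values was not tested. The genotype effect in males minus that in females ran from −0.65 for P2ry12 (95% CI −1.54 to 0.24) to −0.24 for Lyn (95% CI −0.87 to 0.40). No member was called for it, beside 0% of 9218 genes by limma and 0 by edgeR and DESeq2, and 301 genes reached an unadjusted p under 0.05. In sub-cluster 0 the same contrast was below 0 for all 8 members (median −0.67, beside −0.001 over all genes). The 8 values come from the same mice and are not independent. No alternative fit was run for this contrast in sub-cluster 0, and no mouse was left out. The contrast ran from −0.99 for P2ry12 (95% CI −1.89 to −0.09) to −0.22 for Lyn (95% CI −0.85 to 0.40). There too 0 members were called by limma, beside 0.0125% of 8010 genes, and 262 genes reached an unadjusted p under 0.05.

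Partners of the members were read from lists written from textbook knowledge, and counts of their genes called in sub-cluster 0 stand beside 0.449% of all genes. Of the 20 genes that relay TREM2 and CSF1R signals, 7 were tested in sub-cluster 0 with 0 called, 6 above 0 and a median log2 fold change of 0.60. The exchange factor Dock2 stood at 0.61, the adaptors Fyb and Grb2 at 0.60 and 0.20, and the ubiquitin ligase Cbl at 0.00 (limma FDR = 0.235 to 0.999). Of 10 myeloid transcription factors 6 were tested and 1 rose, Runx1, a regulator of blood cell development (log2 0.89, SE 0.20, limma FDR = 0.0749), a call lost with no pool term or without the pool A male WT mouse, where 0 genes were called. Mef2a at 0.06, Mef2c at 0.09 and Ikzf1 at 0.48 did not pass, and the list had a median of 0.29.

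Of 18 homeostatic microglia genes 9 were tested in sub-cluster 0 with 0 called, 8 above 0 and a median of 0.45. Tgfbr1, a TGF-beta receptor, stood at 0.33, the lysosomal protease gene Lgmn at 0.46, and the ectonucleotidase Entpd1 at 0.45 (limma FDR = 0.231 to 0.573). Of 20 disease-associated microglia genes 5 were tested with 0 called, 5 above 0 and a median of 0.69. They included the protease gene Ctsb at 0.69, the tetraspanin gene Cd9 at 0.76, the growth factor gene Csf1 at 0.59 and the apolipoprotein gene Apoe at 0.18 (limma FDR = 0.120 to 0.869). The 3 ligand genes tested, Apoe, Csf1 and Cx3cl1 (fractalkine), had a median of 0.21. The 7 neuron markers had a median of −0.01 with 0 called. Of the OPC, astrocyte, endothelial and lymphocyte markers 4, 4, 2 and 1 were tested with 0 called (medians −0.07, −0.15, −0.51 and 0.82), and 0 border macrophage markers passed the filter.

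Between genotypes, the lists had 0 calls over all microglial nuclei and in sub-cluster 1. Over all nuclei 2 of 16 TREM2 and CSF1R partners rose (Tyrobp and Btk), as did 2 of 16 homeostatic genes (C1qa and C1qb), 1 of 9 myeloid transcription factors (Spi1), 7 of 14 disease-associated genes and 2 of 4 ligands (Csf1 and Apoe), with 0 falling. These genes are named after their values were seen, and Tyrobp, Csf1 and Apoe are also among the disease-associated genes. The medians of these lists were 0.36, 0.21, 0.16, 0.58 and 0.34, beside 0.00 over all 17097 genes, and 2 of 5 astrocyte markers rose with them (median 0.37). The 4 endothelial and 6 oligodendrocyte markers were all above 0 (medians 0.45 and 0.16) with 0 called. All these counts stand beside 3.14% of genes called. Over all nuclei, the lists also count RNA of other cells. The disease-associated genes summed to 2500 CPM in Schwann and meningeal cells, 2346 in astrocytes, 1568 in endothelial cells and 229 in microglia. Astrocytes held 23269 of their UMIs and neurons 23134. Within astrocytes 5 of the 9 tested and 1 of 3 ligands rose, beside 2.29% of genes called. The part of each cell type in the values over all nuclei was not tested. Of 13 interferon and antigen presentation genes 9 were tested over all nuclei, with 0 called and a median of 0.43, while within astrocytes 1 of the 4 tested rose (median 0.63). This list summed to 1015 CPM in endothelial cells, 75.5 CPM in astrocytes and 34.3 CPM in microglia, and within endothelial cells 0 of the 7 tested were called (median −0.08).

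The other members lie at chr3:95526786-95556403 (Ctss, plus strand), chr1:138062861-138175708 (Ptprc, minus), chr1:87620312-87720507 (Inpp5d, plus), chr2:22774094-22875653 (Apbb1ip, plus), chr4:3678115-3813122 (Lyn, plus), chr17:48346401-48354147 (Trem2, plus) and chr18:61100598-61132149 (Csf1r, plus) in GENCODE vM21. None of these 7 overlaps a protein-coding gene on its own strand, while Lyn overlaps the lincRNA Gm26857 and Csf1r the gene Hmgxb3 on the opposite strand.

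Genes that followed the summed members most closely over the 12 cell types and sub-clusters were ranked among 9210 by Pearson's r of log2(CPM + 1). Tgfbr1 came first (r = 0.965), then Unc93b1, a chaperone of endosomal Toll-like receptors (0.949), Gm26740 (0.942), Cacul1 (0.926), Rbm47 (0.925), the adaptor gene Lcp2 (0.924), the phospholipase gene Plcg2 (0.919), Eif2a (0.908), Arhgap45 (0.907) and Gm5086 (0.904). The 12 points share libraries and differ in depth, so these values are a description. Tgfbr1 stood at 658 CPM in sub-cluster 2, 111 in sub-cluster 0 and 42.1 in sub-cluster 1, beside 25.0 in neurons. Of the members, Inpp5d followed the sum of the other 8 most closely (r = 0.905) and Apbb1ip least (r = 0.462).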

How the data were processed

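Nuclei of 12 mice were sequenced in 3 pools, each made of 4 mice with nuclear hashtags. The authors made UMI counts on mm10 with Cell Ranger 3.1 and assigned nuclei to mice with HTODemux of Seurat, version 4.0.3 (R version 4.0.3). They removed nuclei with under 200 genes, over 10% mitochondrial UMIs or mixed hashtags, and deposited the raw counts with the mitochondrial percent and cell type of each nucleus. The submitters' processing notes also name STAR 2.5.1b and bcl2fastq 2.20.0.422. Pairs of nuclei from 1 mouse carry 1 hashtag, and no further doublet caller was run. Depth was 6411715 to 36668441 UMIs per mouse.

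Counts were summed per mouse and cell type. Following the study, genes that passed filterByExpr were fitted with limma 3.58.1 voom (TMMwsp factors of edgeR 4.0.16, groups of sex and genotype, pool as a term) in R 4.3.3, with Benjamini-Hochberg FDR < 0.1 over all genes tested. The minimum count of 10 and robust eBayes are choices made here. The difference between sub-clusters had mouse as a random block, and nuclei per type were tested with edgeR (FDR < 0.05). The labels name the pool as the batch, so the pool term pairs the mice. Alternatives were edgeR, DESeq2 1.42.0, other scaling and filters, no pool term, other sets of nuclei and each mouse left out. Tested on simulated counts for sub-cluster 0 (8214 genes), the fit recovered 45.8% of 96 genes changed by 1 on the log2 scale. It recovered 100% of 94 genes changed by 2, with 23 false calls. The simulated counts had 1 dispersion of 0.1 for all genes and no pool effect, so these rates need not hold for the real counts.

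Members and lists were chosen with earlier results of these data known. All 9 members are named. Of each list, genes called in a microglial fit and at most 4 with the highest level in microglia are named, and the 10 genes most like the summed members. Some genes that this rule names are not reported here. Positions are from GENCODE vM21.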

Additional observations from a re-analysis of the deposited data

Results flagged for a closer look

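Of 68 groups of 4 to 6 mice tested for a single extreme value, 8 had one. The usual rate of about 1 in 20 holds for normally spread values. It does not hold where the other mice are at 0, so 8 of 68 is not read as an excess. In sub-cluster 1 of SOD1G93A mice (5 mice), the pool A male had 6.61 CPM of Ctss, 3.31 CPM of Ptprc and 16.53 CPM of Inpp5d, on 2, 1 and 5 UMIs, with the other mice at 0. There the pool A female had 105.49 CPM of Lyn and 52.74 CPM of P2ry12, on 2 UMIs and 1 UMI. In sub-cluster 1 of WT mice (6 mice), the pool C male had 7.27 CPM of Csf1r on 2 UMIs and the pool B male 0.85 CPM of Trem2 on 1 UMI. Over all nuclei labelled microglia, the pool C male SOD1G93A mouse had 204.44 CPM of the summed members, beside 399 to 451 CPM in the other 5 SOD1G93A mice.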

How the results depend on the processing

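Of 1370 values recomputed under an alternative, 1216 kept their direction, their side of the threshold or their size. Causes of the changes below were not tested, unless an alternative has fewer nuclei, mice or genes by construction.

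Over all microglial nuclei, genes called went from 7 to 20 with DESeq2, 31 with no scaling factors, 18 with no filter, 22 with a minimum count of 30, 3 with no pool term (no replicate block), 18 without nuclei high in neuron markers, 16 without nuclei over 60000 UMIs and 26 without sub-cluster 1. Members called went from 0 to 1 with no scaling factors, without nuclei high in neuron markers and without sub-cluster 1, each time Ctss. In sub-cluster 0, genes called went from 36 to 12 with edgeR, 23 with DESeq2, 125 with mice of 5 or more nuclei, 7 without nuclei over 60000 UMIs and 0 with no pool term, and members called from 3 to 1 with no filter or a minimum of 30 and to 0 with no pool term or without nuclei over 60000 UMIs. Ctss and Ptprc did not pass the count filter with a minimum of 30 or without nuclei over 60000 UMIs, so they were not tested there (Lyn, the 1 of the 3 tested, had limma FDR = 0.0629 and 0.5538).

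Sub-cluster 1 went from 1 gene to 0 with a minimum of 30 or no pool term and to 2 without nuclei over 60000 UMIs, and could not be fitted on mice with 5 or more nuclei. Sex went from 40 genes to 22 with no filter and 15 with no pool term. All nuclei went from 536 to 32 genes and from 1 to 0 members with no pool term, and to 2 members without microglia. The other types together went from 385 genes to 670 with no filter, 246 with a minimum of 30 and 152 with no pool term. The difference between sub-clusters went from 1 gene to 0 with mouse as a fixed term or no pool term. Thinned to 2000 UMIs, the highest share was 19.7% in sub-cluster 0, 73.3% in sub-cluster 2 and 8.33% in neurons, where the lowest was 0.057%.

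Log2 differences changed sign for Inpp5d in microglia without nuclei over 60000 UMIs (−0.0804). Those of sex did so for Apbb1ip with edgeR (−0.14), DESeq2 (−0.28), no filter (−0.0597) and no pool term (−0.0784), and for Csf1r with no pool term (−0.0302).

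With each mouse left out in turn, genes called ranged from 2 to 102 in microglia (members 0 to 1), 0 to 166 in sub-cluster 0 (members 0 to 4), 0 to 5 in sub-cluster 1, 14 to 65 for sex, 0 to 2 for genotype by sex, 152 to 1045 over all nuclei and 0 to 2 for the difference between sub-clusters. Signs changed within −0.0252 to 0.63 for Apbb1ip in microglia. For sex they did so within −0.0319 to 0.68 for Ptprc, −0.0494 to 0.23 for Lyn, −0.11 to 0.42 for Csf1r and −0.45 to 0.23 for Apbb1ip. For genotype by sex they did so within −0.83 to 0.48 for Ptprc and −1.13 to 0.13 for Apbb1ip. Over all nuclei they did so within −0.039 to 0.50 for Trem2 and −0.27 to 0.0237 for P2ry12. They also changed within −0.29 to 0.41 for the share of sub-cluster 0. The fitted difference of Inpp5d between sub-clusters, −0.16 to 1.42, is no measured difference, as the gene was below the count filter in sub-cluster 1.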
